A study of Mus musculus with 26 samples.

Results

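Voltage-gated sodium channel transcripts were followed in 13 neuron subtypes sorted from the mouse retina at postnatal day 6. The set holds 7 genes: the pore-forming alpha subunits Scn1a, Scn2a, Scn3a and Scn8a, and the auxiliary beta subunits Scn2b, Scn3b and Scn4b. They were picked by symbol, with earlier results of these data known, and have 20 of the 45037 probe sets outside the controls and 7 of the 18193 genes with a probe set of a single symbol. Each gene was read from its brightest probe set, the one with the highest mean over the 26 arrays, and the other probe sets were checked separately. 6 of the 7 genes passed the filter on dim genes, which kept 13951 genes, and Scn4b did not.

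Each subtype had 2 arrays from different litters, and cells were sorted from dissociated retinas by a reporter, alone or with an antibody. The 2 bipolar groups, interneurons that carry photoreceptor signals inward, were ON bipolar cells (GFP+, C57BL/6) and MP bipolar cells (CFP+ VC1.1-, mixed C57BL/6 x CD1). The 6 ganglion cell groups, the output neurons of the retina, were all Thy1+. BD, J, W3 and W7 cells carried YFP and Isl2 cells carried bgal, all on C57BL/6, and Cdh3 BAC cells carried GFP on a background labelled Swiss Webster x C57BL/7 on one array and Swiss Webster x C57BL/8 on the other. The 5 amacrine groups, interneurons of the inner retina, were starburst cells (Kusabira Orange+ Thy1-, C57BL/6), MP cells (CFP+ VC1.1+, mixed C57BL/6 x CD1), AII cells (GFP+, Swiss Webster x C57BL/6), J cells, labelled glycinergic (YFP+, C57BL/6), and PaxCre cells, labelled GABAergic (GFP+, C57BL/6). The promoters that drive the reporters were not given in the sources used here. All mice were untreated, and strain therefore differed between some groups.

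Voltage-gated sodium channels open on depolarisation and carry the inward current of the action potential. An alpha subunit forms the pore by itself, and beta subunits are small membrane proteins with an immunoglobulin-like domain that alter gating and anchor the channel. Channels are concentrated at the axon initial segment, where spikes start, by the scaffold protein ankyrin-G. Ganglion cells fire trains of spikes, some amacrine cells such as AII cells also carry sodium currents, and most bipolar cells signal mainly with graded potentials.

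The genes lie in a few clusters. In assembly GRCm38.p6, Scn3a (chr2:65457118-65567591), Scn2a (chr2:65620764-65767447) and Scn1a (chr2:66270781-66440837) are neighbours on chromosome 2, with 53172 bases between Scn3a and Scn2a and 503333 between Scn2a and Scn1a. Scn2b (chr9:45117876-45130070) and Scn4b (chr9:45138624-45154155) are 8553 bases apart on chromosome 9, which also holds Scn3b (chr9:40269216-40291618). Scn8a (chr15:100869863-101045938) is alone on chromosome 15.

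RefSeq promoters of build GRCm38.p6 matched 5 of the 7 genes, with 7 start sites. The 250 bases before the start are shown for genes that differ most in their pattern over the subtypes: Scn1a, which was far lower in starburst cells than in other amacrine cells, the second start of Scn2a, which was lower in bipolar cells, Scn8a (first start), the tested gene with the narrowest range, and Scn2b, the gene that was higher in starburst cells. The strand is plus except for Scn1a, and capitals mark a motif found on either strand.
Scn1a promoter (chr2:66440838-66441087, minus strand): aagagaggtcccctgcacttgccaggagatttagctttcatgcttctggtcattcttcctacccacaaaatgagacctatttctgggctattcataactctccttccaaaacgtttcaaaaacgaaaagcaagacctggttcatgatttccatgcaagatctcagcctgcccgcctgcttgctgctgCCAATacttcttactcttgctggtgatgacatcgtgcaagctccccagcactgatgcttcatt
Scn2a promoter, start 2 (chr2:65668436-65668685, plus strand): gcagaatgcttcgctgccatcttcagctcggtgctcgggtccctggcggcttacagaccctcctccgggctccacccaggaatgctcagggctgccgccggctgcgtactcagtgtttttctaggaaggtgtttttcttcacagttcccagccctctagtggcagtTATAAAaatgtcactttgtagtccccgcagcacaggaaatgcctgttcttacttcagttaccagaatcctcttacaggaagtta
Scn8a promoter, start 1 (chr15:100870395-100870644, plus strand): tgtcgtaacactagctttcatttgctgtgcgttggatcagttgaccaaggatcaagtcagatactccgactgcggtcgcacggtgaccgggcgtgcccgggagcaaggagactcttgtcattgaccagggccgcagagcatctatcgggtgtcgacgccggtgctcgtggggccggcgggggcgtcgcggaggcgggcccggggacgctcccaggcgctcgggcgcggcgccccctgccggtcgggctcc
Scn2b promoter (chr9:45117626-45117875, plus strand): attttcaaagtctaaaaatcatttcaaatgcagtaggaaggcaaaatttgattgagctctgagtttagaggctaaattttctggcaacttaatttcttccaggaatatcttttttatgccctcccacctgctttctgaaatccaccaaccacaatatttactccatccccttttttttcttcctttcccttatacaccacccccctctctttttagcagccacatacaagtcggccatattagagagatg

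Each motif was searched on both strands, and no hits in these windows overlap one another. The box CCAAT occurred once in the Scn1a window, 63 bases before the start, and in 33.85% of all 32851 promoters. The box TATAAA occurred once in the second Scn2a window, 84 bases before the start, and in 12.37% of all promoters. The E-box, CANNTG, was counted and not put in capitals, and it was in 66.22% of all promoters. It occurred once for Scn1a, not in the second Scn2a window, and 2 times each for Scn8a (first start) and Scn2b. The GC box, GGGCGG, in 32.74% of all promoters, was in none of the 7 windows. Nor was GGACAG, a part of the site of the neuronal repressor REST, which was in 18.67% of all promoters. The windows differed in base composition, with 46.8% G or C for Scn1a, 53.2% for the second Scn2a start, 68% for the first Scn8a start and 38.4% for Scn2b, against a median of 52.4%.

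Values are log2(intensity + 16) after quantile normalization, on which 1 unit is a 2-fold step, the floor of the deposited values lies at 4.09 and the median of all probe sets at 6.14. Levels of different probe sets depend on their probes and are not set against each other. As deposited, the medians of the 12 ganglion cell arrays (61.5 to 74.8) were above those of the 14 others (37.4 to 47.1), and this scale cannot be told apart from class. The labels were checked against marker genes, whose levels are means over the markers of a list. The ganglion cell list averaged 5.77 to 6.37 in bipolar, 10.95 to 11.53 in ganglion cell and 5.90 to 7.30 in amacrine subtypes, and the bipolar list 9.27 to 10.82 in bipolar subtypes, against at most 7.45 elsewhere. The starburst list averaged 9.82 in starburst cells, against 7.13 or less elsewhere, although Slc5a7, a choline transporter of cholinergic neurons, was at 4.74. Thy1 was at 9.98 in the starburst cells sorted as Thy1-negative and at 11.67 in MP bipolar cells. Microglia markers averaged 5.55 to 6.11 in bipolar, 7.34 to 9.83 in ganglion cell and 5.45 to 7.01 in amacrine subtypes, and all 8 were called between ganglion cells and each other class. Rod photoreceptor markers averaged 9.23 to 9.76 in bipolar, 5.59 to 7.21 in ganglion cell and 7.28 to 9.79 in amacrine subtypes (MP amacrine cells highest). Of 7 rod markers, 7 were higher in bipolar than in ganglion cells, 6 lower in ganglion than in amacrine cells and 5 higher in MP than in other amacrine cells. The part of these cells' RNA in the results below was not tested. The excess of the 3-prime over the 5-prime actin control probe set, a sign of RNA integrity and amplification, had a median of 1.84 log2 units in bipolar arrays and 2.05 in ganglion cell arrays (1.43 to 2.77), against 4.66 in amacrine arrays (1.78 to 4.84). In sorted bulk RNA, fewer expressing cells and less RNA per cell cannot be told apart.

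Scn1a encodes Nav1.1, an alpha subunit prominent in fast-spiking interneurons. Its mean was highest in AII amacrine cells at 11.38 ± 0.30 (SD, n = 2) and lowest in starburst cells at 4.92 ± 0.23, below the median of all probe sets. The values were 7.82 and 8.34 in ON bipolar and 10.31 and 10.40 in MP bipolar cells. The ganglion cell arrays ran from 10.29 to 11.25 with a median of 10.78, with W7 cells highest at 11.23 ± 0.03. The 2 arrays read 4.76 and 5.08 in starburst, 10.44 and 10.76 in MP, 11.17 and 11.59 in AII, 9.70 and 9.88 in J and 9.21 and 8.85 in PaxCre amacrine cells. The deposited intensities were 9.64 and 13.5 in starburst cells and 173 or more on each of the other 24 arrays. In the order of the 13 means, 6 of 12 steps between neighbours exceeded the larger range of the arrays of that pair. They include the steps from MP bipolar down to J amacrine, PaxCre amacrine, ON bipolar and starburst cells, while AII and W7 cells at the top were not separated beyond their spread.

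Scn2a encodes Nav1.2, the alpha subunit of unmyelinated axons and of early initial segments. Its values were 7.68 and 7.49 in ON bipolar and 7.48 and 6.23 in MP bipolar cells. The 12 ganglion cell arrays ran from 9.73 to 11.45 with a median of 10.91. The 2 arrays read 8.21 and 7.30 in starburst, 9.53 and 10.65 in MP, 9.57 and 9.86 in AII, 10.88 and 9.95 in J and 10.40 and 10.14 in PaxCre amacrine cells. Starburst and bipolar cells were thus the low subtypes, below every other array. Of the 12 steps in the order, 2 exceeded the spread: the one below W7 cells (11.31 ± 0.19) at the top, and the one of 1.96 between AII and starburst cells.

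Scn3a encodes Nav1.3, the alpha subunit known as abundant in embryonic and newborn brain. It read 8.79 and 9.72 in ON bipolar and 11.36 and 11.12 in MP bipolar cells, and 10.94 to 11.33 with a median of 11.19 in ganglion cells. In amacrine cells it was 7.24 and 6.27 in starburst, 11.21 and 11.35 in MP, 10.43 and 10.52 in AII, 11.05 and 10.66 in J and 11.17 and 11.03 in PaxCre cells. Only the steps from AII to ON bipolar cells (1.22) and from ON bipolar to starburst cells (2.49) exceeded the spread. The other 11 subtype means lay between 10.47 and 11.32.

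Scn8a encodes Nav1.6, the alpha subunit that takes over at mature initial segments and nodes of Ranvier. It had the narrowest range of the tested members, with means from 8.80 ± 0.03 in PaxCre cells to 10.61 ± 0.40 in W7 ganglion cells. Its arrays ran from 9.09 to 9.75 in bipolar cells, 9.08 to 10.89 in ganglion cells and 8.29 to 10.18 in amacrine cells. The classes overlapped throughout, and 1 of 12 steps, below AII cells, exceeded the spread. The starburst replicates were 9.90 and 8.29, the widest pair for this gene.

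Scn2b encodes beta-2, which is disulphide-linked to the alpha subunit. It was 8.11 and 6.74 in ON bipolar and 7.28 and 7.01 in MP bipolar cells, and 9.68 to 10.77 with a median of 9.98 in ganglion cells. Starburst cells read 9.84 and 10.24, within the ganglion cell range, and the other 8 amacrine arrays read 8.14 to 9.08 with a median of 8.46. The gap of 0.99 between the lowest ganglion cell subtype (BD, 9.77) and AII cells (8.78) was the single step of 12 beyond the spread.

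Scn3b encodes beta-3, a non-covalently bound beta subunit of developing neurons. It was 6.71 and 6.55 in ON bipolar and 7.16 and 7.17 in MP bipolar cells. The 12 ganglion cell arrays lay between 11.29 and 11.82 with a median of 11.50. The amacrine subtypes spread widely, at 8.24 and 8.05 in starburst, 9.62 and 10.10 in MP, 9.30 and 8.89 in AII, 10.77 and 10.28 in J and 11.35 and 11.61 in PaxCre cells. PaxCre cells lay within the ganglion cell range, and each step below BD ganglion cells exceeded the spread: J, MP, AII and starburst amacrine, then MP and ON bipolar cells. The ganglion cell marker list was also higher in J (7.30), MP (7.17) and PaxCre cells (7.13) than in starburst (6.34) and AII cells (5.90), and in PaxCre cells 3 of its 9 measured members were called higher and 1 lower than in the other amacrine cells. The list's part in the Scn3b levels was not tested.

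Scn4b, the gene of beta-4, the partner linked to resurgent current, was at or near the floor. Its single probe set lay below the median of all probe sets on all 26 arrays, at 4.18 to 4.46 in bipolar, 4.25 to 4.98 in ganglion and 4.23 to 4.83 in amacrine cells. It was not tested, and a level this low sets no bound on its relative amounts.

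**Figure D1:**
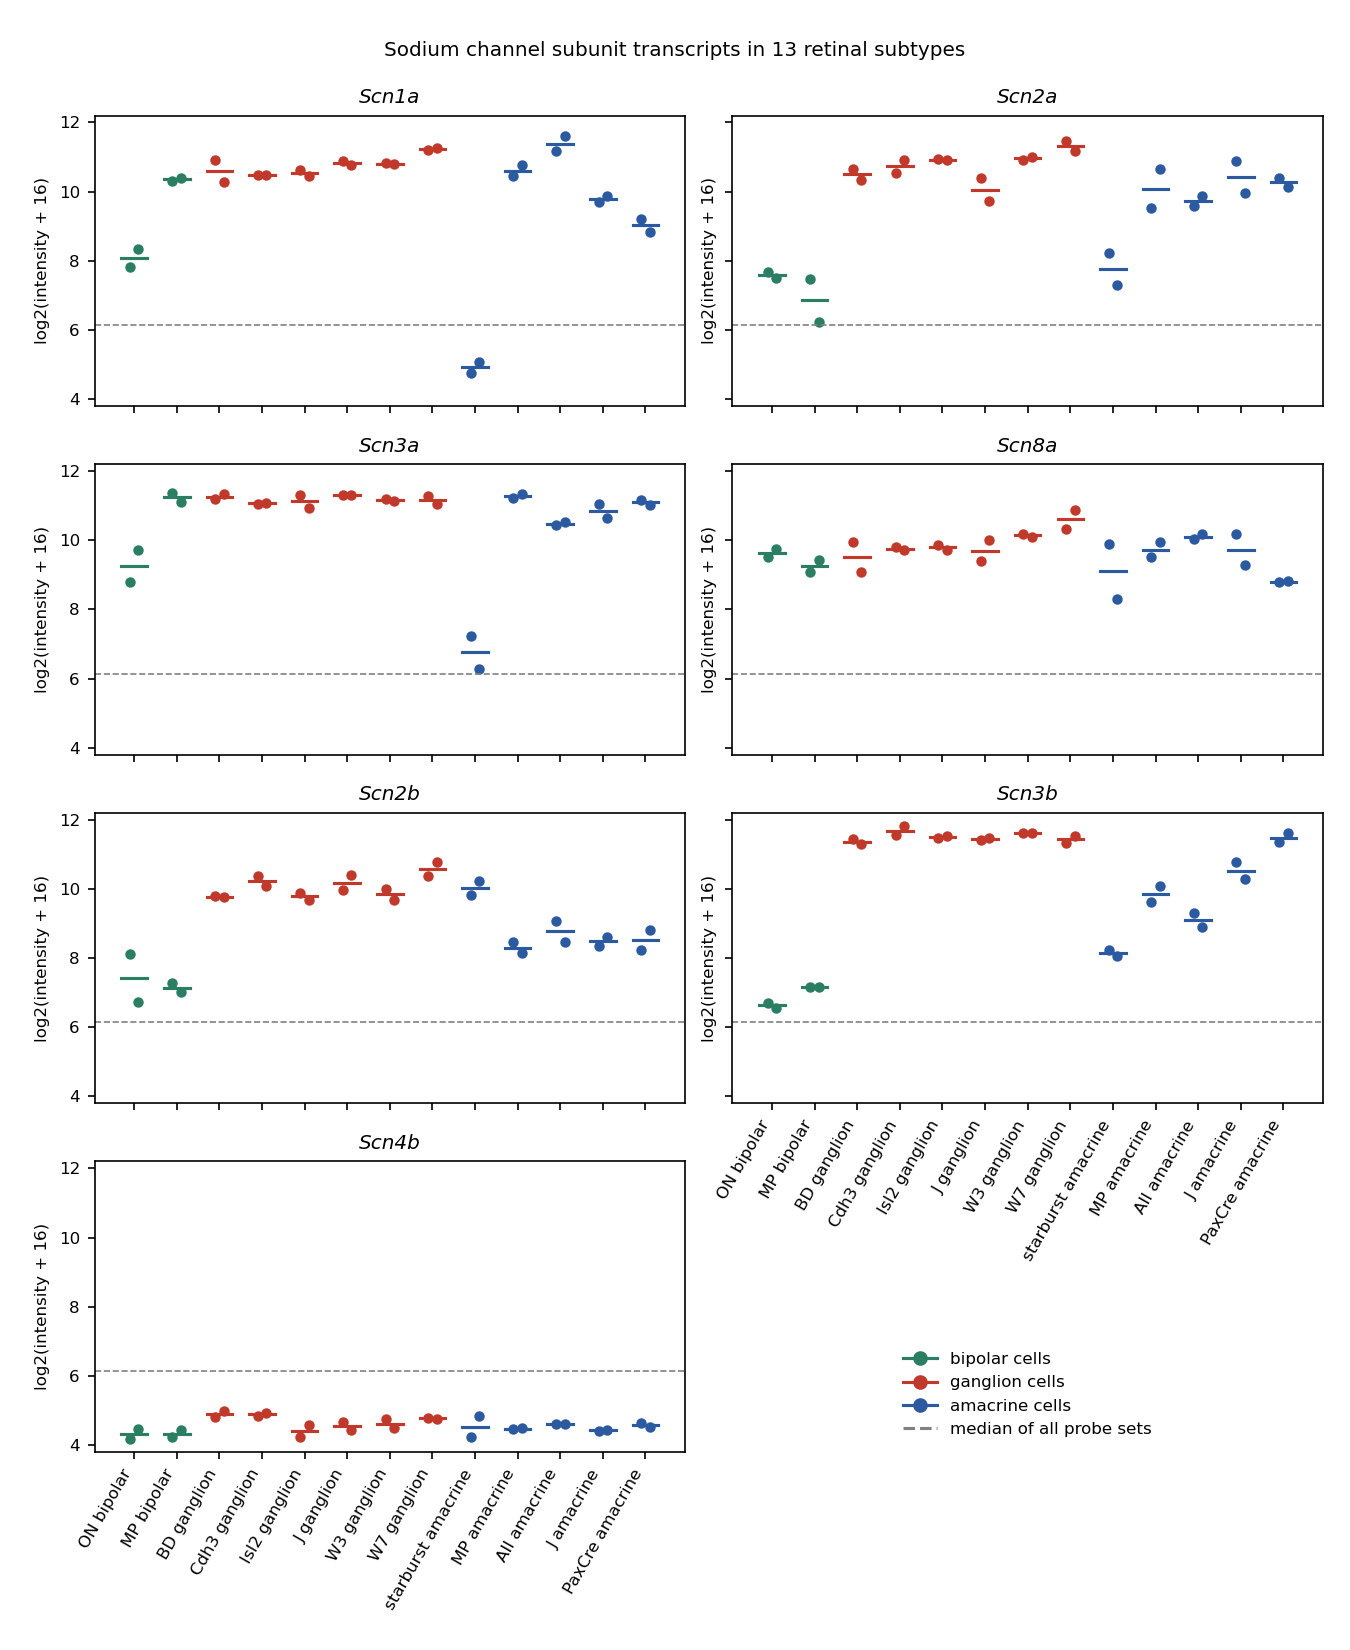
Level of the 7 sodium channel subunit genes on each of 26 arrays, as log2(intensity + 16) of the brightest probe set, by subtype, with bipolar cells in green, ganglion cells in red and amacrine cells in blue. Points are arrays, short lines are subtype means (n = 2) and the dashed line is the median of all probe sets at 6.14. Scn1a and Scn3a were lowest in starburst cells, Scn2a, Scn2b and Scn3b were low in both bipolar subtypes, and Scn4b was near the floor throughout.

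Bipolar cells were compared first with ganglion cells, subtypes weighing equally within a class. A gene was called at a limma adjusted p under 0.05 (Benjamini-Hochberg over 13951 genes) and a change of 1 log2 unit or more in either direction. 4 of the 6 tested members were lower in bipolar cells, where 18.5% of all genes were called lower. Scn3b fell furthest, averaging 6.90 in bipolar and 11.51 in ganglion cells, a difference of -4.61 ± 0.12 (SE; 24.4-fold; limma adjusted p = 1.43e-15) with no overlap of arrays. Scn2a differed by -3.53 ± 0.24 (11.5-fold) and Scn2b by -2.78 ± 0.20 (6.87-fold), again with no overlap. Probe set 1430648_at of Scn2b gave -0.94 and 1441728_at of Scn1a gave -0.99, neither called. Scn1a averaged 9.21 in bipolar and 10.75 in ganglion cells (-1.53 ± 0.13), but the MP bipolar arrays at 10.31 and 10.40 were inside the ganglion cell range. Scn3a at -0.94 ± 0.16, which was called without the second ON bipolar array (-1.17) and without the MP line (-1.93), and Scn8a at -0.47 ± 0.23 were not called. The median difference of the 6 members was -2.16, against 0.02 over all genes. With subtype means as units, which lets subtypes of a class differ, Scn1a was no longer called (adjusted p = 0.359).

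Between bipolar and amacrine cells, 3 of 6 members were lower in bipolar cells, where 5.7% of all genes were called lower, and 4.67% higher. Scn3b averaged 6.90 in bipolar and 9.82 in amacrine cells (-2.92 ± 0.12; 7.58-fold; limma adjusted p = 4.83e-12), and no array overlapped. Scn2a differed by -2.43 ± 0.25, with the starburst array at 7.30 inside the bipolar range, and its probe sets 1427281_at (-0.60) and 1445259_at (-0.44), dim in both classes, gave no call. Scn2b differed by -1.54 ± 0.20 with no overlap. Scn1a (0.07 ± 0.13), Scn3a (0.15 ± 0.17) and Scn8a (-0.05 ± 0.24) were not called. The second probe set of Scn1a, 1450120_at, was lower in bipolar cells (-1.33; adjusted p = 4.26e-04), so the probe sets of this gene differed here. Without the starburst arrays, an alternative added after the data were seen, the brightest probe set of Scn1a gave -0.99. Again 3 members were called lower, where 5.74% of all genes were. The 3-prime excess of the actin control had a median of 1.84 in bipolar and 4.66 in amacrine arrays. Its part in this comparison was not tested.

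Ganglion cells were then compared with amacrine cells. 5 of 6 members were higher in ganglion cells, where 15.8% of all genes were called higher: Scn3b at 1.69 ± 0.09, Scn1a at 1.60 ± 0.10, Scn2b at 1.24 ± 0.15, Scn2a at 1.10 ± 0.18 and Scn3a at 1.09 ± 0.12, with limma adjusted p from 5.42e-12 to 2.52e-05. Scn8a, at 0.43 ± 0.17, was not called. The other probe sets of Scn1a, 1450120_at (0.95) and 1441728_at (0.81), gave no call, and 1430648_at of Scn2b gave -0.14. The median difference of the 6 members was 1.17, against 0.0035 over all genes, and the arrays of the classes overlapped for each gene. Scn1a ranged from 10.29 to 11.25 in ganglion cells and from 4.76 to 11.59 in amacrine cells. Without the starburst arrays, 2 of 6 members were called, Scn2b (1.55) and Scn3b (1.27), where 16.6% of all genes were called higher. The differences of Scn1a, Scn2a and Scn3a were then 0.55, 0.63 and 0.25. The Scn2a call ended without the first MP amacrine array (0.99) and the Scn3a call without the second starburst array (0.99). The count of 2 was also found with subtype means as units, where 14.7% of all genes were called higher. The limma adjusted p was then 0.177 for Scn1a, 0.0526 for Scn2a and 0.228 for Scn3a. The 3-prime excess of the actin control also differed between these classes, with a median of 2.05 in ganglion and 4.66 in amacrine arrays, and its part in the result was not tested.

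**Figure D2:**
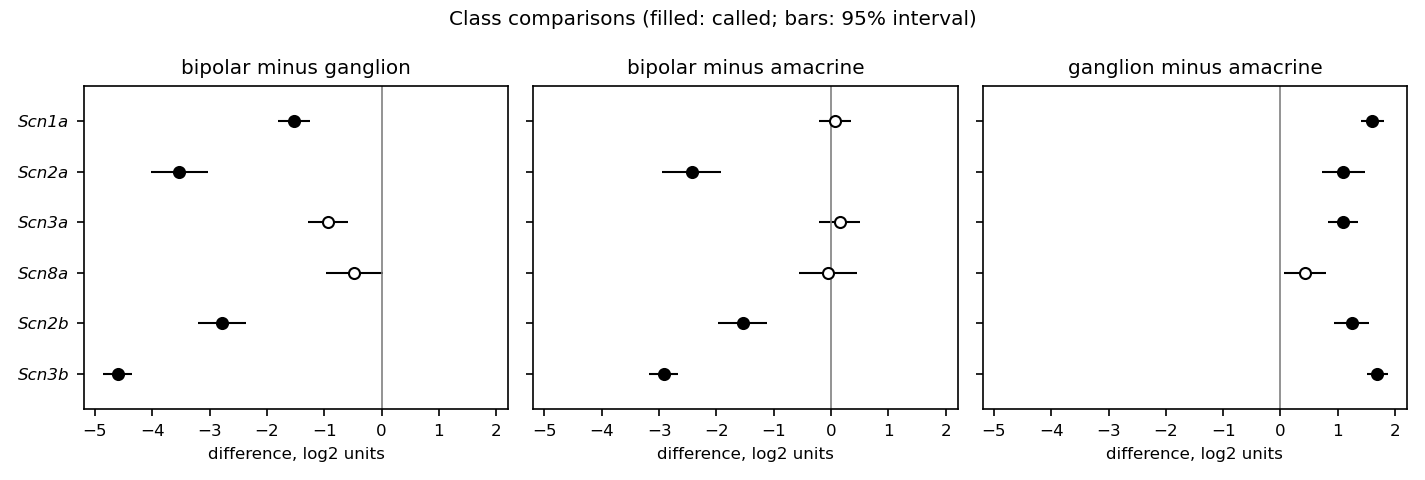
Differences of the 6 tested members for bipolar minus ganglion, bipolar minus amacrine and ganglion minus amacrine cells, in log2 units on the horizontal axis, with 95% intervals. Filled points were called and open points were not. Scn2a, Scn2b and Scn3b were lower in bipolar cells in both comparisons, and Scn8a was called in none.

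Starburst cells, the cholinergic amacrine cells of the direction-selective circuit, were set against the other 4 amacrine subtypes. 4 of 6 members were lower in starburst cells and 1 was higher, where 5.61% of all genes were called lower and 5.32% higher. Scn1a averaged 4.92 in starburst and 10.20 in the other amacrine cells (-5.28 ± 0.18; 38.9-fold; limma adjusted p = 4.9e-13), and the 8 other arrays read 8.85 to 11.59. Scn3a averaged 6.76 in starburst and 10.93 in the others (-4.17 ± 0.23; 18.0-fold), Scn2a 7.76 and 10.12 (-2.37 ± 0.33) and Scn3b 8.14 and 10.24 (-2.09 ± 0.16). Scn2b went the other way, at 10.04 in starburst and 8.52 in the other amacrine cells (1.52 ± 0.27; adjusted p = 4.01e-04). For these 5 genes no starburst array overlapped the 8 others. The share of all genes without overlap of arrays was not counted, here or in the other comparisons. Scn8a, at -0.49 ± 0.32, was not called.

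The starburst value of Scn1a was close to the floor, so its size depends on the constant added: the difference was -6.01 with 4 in place of 16 and -3.98 with 64. The other probe sets of Scn1a did not give one answer in size, and those of Scn2a differed in size and direction. Scn1a 1450120_at differed by -2.92, Scn2a 1435933_at differed by -2.76 and 1427281_at by -1.02, all called. Scn1a 1441728_at gave -0.70 and was not called (adjusted p = 0.156). Scn2a 1445259_at went the other way, higher in starburst cells by 0.66, under the size threshold. It was dim, at 5.66 in starburst and 4.69 to 5.27 in the other amacrine subtypes. Scn2b rests on 1 probe set, since 1430648_at differed by -0.01. The 3-prime excess of the actin control was 4.68 to 4.70 in starburst cells and 4.65 to 4.84 in J and PaxCre amacrine cells. It was lower in the other subtypes compared, at 3.32 to 3.59 in AII and 1.78 to 3.69 in MP amacrine cells. Its part in the starburst values was not tested. Scn8a was also called lower with probe set 1439889_at (-1.14; adjusted p = 0.0043) and, with the brightest, without the first starburst array (-1.30). The median difference of the 6 members was -2.23, against 0.05 over all genes.

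Among the other amacrine subtypes, AII cells had the highest level of the brightest Scn1a probe set. AII cells are the narrow-field glycinergic cells that link rod and cone pathways. They averaged 11.38 and the other amacrine cells 8.58 (2.80 ± 0.18; limma adjusted p = 2.48e-09), with 5.73% of all genes called higher and 10.5% lower. No other array of the amacrine class reached the AII values of 11.17 and 11.59. Without the starburst arrays the difference was 1.58 and stayed called, and Scn3b was then called lower in AII cells (-1.53; -0.91 ± 0.16 with all arrays, not called), as it was without the first AII array (-1.11). A probe set of Scn8a, 1439889_at, was higher in AII cells (1.61; adjusted p = 1.67e-04), whereas the brightest gave 0.77 ± 0.32 and was not called. Of the other Scn1a probe sets, 1450120_at was called higher in AII cells (1.60) and 1441728_at was not (0.29; adjusted p = 0.563). The 3-prime excess of the actin control was 3.32 to 3.59 in AII cells, against 4.65 to 4.84 in starburst, J and PaxCre cells. AII cells were also the only amacrine group labelled Swiss Webster x C57BL/6. The part of RNA quality and strain in these values was not tested.

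PaxCre cells had 2 of 6 members called higher, where 4.97% of all genes were. Scn3b averaged 11.48 in PaxCre and 9.40 in the other amacrine cells (2.07 ± 0.16; limma adjusted p = 6.85e-08), with no overlap, and 1.65 without the starburst arrays. Scn3a gave 1.25 ± 0.23 but 0.23 without the starburst arrays, when its call ended. In that setting Scn1a (-1.56; -0.14 ± 0.18 with all arrays) and Scn8a (-1.05; -0.86 ± 0.32 with all arrays) were called lower in PaxCre cells, Scn8a also without the second starburst array alone (-1.06). With subtypes labelled C57BL/6 only, which leaves starburst and J cells to compare with, Scn1a was instead called higher in PaxCre cells (1.67; adjusted p = 1.22e-04). MP amacrine cells also had 2 of 6 members called higher (5.13% of all genes), Scn1a at 1.82 ± 0.18 and Scn3a at 1.49 ± 0.23. Both calls ended without the starburst arrays, at 0.53 and 0.47, and 1450120_at of Scn1a gave -0.01. Scn2a was called higher in MP cells with 1435933_at (1.86; adjusted p = 6.55e-05) and not with the brightest (0.55 ± 0.33). The 3-prime excess of the actin control was 1.78 and 3.69 on the MP amacrine arrays. Its part and that of their mixed strain were not tested. J amacrine cells had 0 of 6 called by limma, where 6.06% of all genes were called in either direction. At the looser threshold of an unadjusted p under 0.05 there were 4 of 6 members. The share of all genes at that looser threshold was not counted. Their differences were 0.81 ± 0.18 for Scn1a, 0.96 ± 0.33 for Scn2a, 0.95 ± 0.23 for Scn3a and 0.88 ± 0.16 for Scn3b. Without the second J amacrine array the differences passed the size threshold of 1 log2 unit, at 1.42 for Scn2a, 1.15 for Scn3a and 1.12 for Scn3b. So did Scn2a (1.07) and Scn3a (1.07) without the first starburst array. Scn2a also did so without the second MP amacrine array (1.10). With subtypes labelled C57BL/6 only, which leaves starburst and PaxCre cells to compare with, 3 members were called higher in J cells. They were Scn1a (2.81), Scn2a (1.40) and Scn3a (1.93), where 2.84% of all genes were called higher. Without both starburst arrays none was called by limma, where 3.01% of all genes were called higher and 3.76% lower. The differences were then -0.55 for Scn1a, 0.39 for Scn2a, -0.10 for Scn3a and 0.38 for Scn3b.

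**Figure D3:**
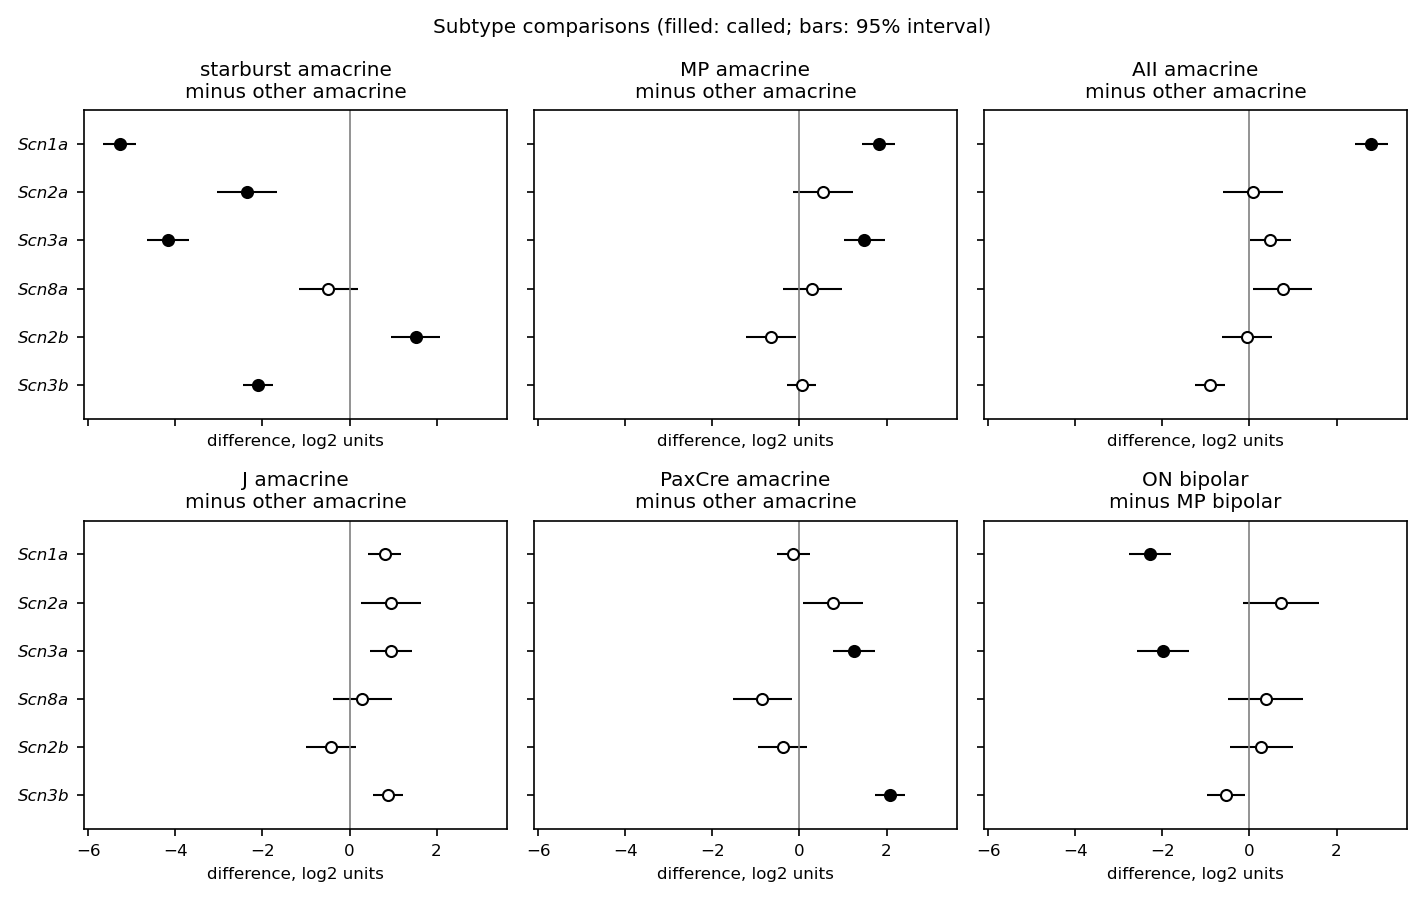
Differences of the 6 tested members for each amacrine subtype minus the other amacrine subtypes and for ON minus MP bipolar cells, in log2 units with 95% intervals. Filled points were called and open points were not. Starburst cells had Scn1a at -5.28 and Scn3a at -4.17 with Scn2b at 1.52, and AII cells had Scn1a at 2.80.

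No ganglion cell subtype was set apart by the brightest probe sets of these genes. Limma called 0 of 6 members for BD (0.495% of all genes called), Cdh3 (2.08%), Isl2 (0.222%), J (2.04%), W3 (0.803%) and W7 cells (1.37%), each against the other 5 subtypes. At an unadjusted p under 0.05 there were 4 members in W7, 1 in J and 0 in the other subtypes. The shares of all genes at that threshold and without overlap of arrays were not counted. These counts and the overlap given next therefore have no background. W7 cells were higher by 0.83 ± 0.32 for Scn8a, 0.68 ± 0.32 for Scn2a, 0.61 ± 0.27 for Scn2b and 0.57 ± 0.18 for Scn1a, and for Scn8a, Scn2a and Scn1a their arrays did not overlap the others. The Scn1a arrays read 11.20 and 11.25 in W7 cells, against 10.29 to 10.90 in the other ganglion cells, and the Scn8a arrays 10.32 and 10.89 in W7 cells, against 9.08 to 10.19. The adjusted p of these 4 was 0.112 to 0.341. The dim probe set 1441728_at of Scn1a was called higher in W7 cells (1.54; adjusted p = 0.0194) and lower in BD cells (-1.53; adjusted p = 0.0412). The 3-prime excess of the actin control was highest among ganglion cells in W7 cells, at 2.63 to 2.77, whereas that of the Gapdh control was 1.61 to 2.18 in W7 and 2.81 to 2.85 in W3 cells, and their part was not tested. W7 had the highest mean of all 13 subtypes for Scn2a, Scn8a and Scn2b. J ganglion cells had the lowest ganglion cell mean of Scn2a at 10.06 (-0.83 ± 0.32; adjusted p = 0.202). Scn3a and Scn3b hardly varied, with differences of -0.14 to 0.17 and -0.18 to 0.21.

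The bipolar subtypes differed in 2 of the alpha subunits. ON bipolar cells were lower than MP bipolar cells in Scn1a, at 8.08 and 10.35 (-2.28 ± 0.23; limma adjusted p = 1.96e-06), and in Scn3a, at 9.25 and 11.24 (-1.99 ± 0.29; adjusted p = 1.19e-04), where 2.44% of all genes were called lower. Neither gene had overlapping arrays. Scn2a (0.73 ± 0.41), Scn8a (0.37 ± 0.41), Scn2b (0.27 ± 0.34) and Scn3b (-0.53 ± 0.21) were not called. The groups differ in strain and gate: both had Cabp5 near 12 (11.98 in ON and 11.88 in MP bipolar cells), a calcium-binding protein of bipolar cells, while Pcp2, a marker of ON types, was at 12.05 in ON and 6.34 in MP bipolar cells and Thy1 at 5.03 in ON and 11.67 in MP bipolar cells. The part of these in the result was not tested. The other 2 probe sets of Scn1a gave no call here, and the second of Scn3a was too dim to test.

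Cells of different classes from 1 reporter line share that line. In the MP line, bipolar cells were lower than amacrine cells in 3 of 6 members, where 4.55% of all genes were. Scn2a averaged 6.85 in MP bipolar and 10.09 in MP amacrine cells (-3.23 ± 0.41; limma adjusted p = 1.91e-05), Scn3b 7.16 and 9.86 (-2.69 ± 0.21) and Scn2b 7.15 and 8.30 (-1.15 ± 0.34; adjusted p = 0.0354). Scn2a 1427281_at (-0.76) and 1445259_at (-0.40) gave no call here. The Scn2b call ended when any of the 4 MP arrays was left out (-1.31 to -0.99). Scn1a (-0.25 ± 0.23) and Scn3a (-0.04 ± 0.29) were not called. The same 3 genes are those called in the class comparison, which uses these arrays too.

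In the J line, ganglion cells were higher than amacrine cells in 2 of 6 members, where 18.4% of all genes were. Scn2b averaged 10.18 in J ganglion and 8.48 in J amacrine cells (1.70 ± 0.34; limma adjusted p = 5.49e-04) and Scn1a 10.84 and 9.79 (1.05 ± 0.23; adjusted p = 0.00103). Both rest on the brightest probe set: 1430648_at of Scn2b gave -0.05 and 1450120_at of Scn1a gave -0.06, and the Scn1a call ended without the first J amacrine array (0.96) and without the first J ganglion array (0.99). Scn3b at 0.92 ± 0.21, which was called without the first J amacrine array (1.16), and Scn3a at 0.47 ± 0.29 were not called. Scn2a gave -0.35 ± 0.41 with its brightest probe set, but its other probe sets 1427281_at, 1435933_at and 1445259_at gave 1.85, 2.27 and 2.71, each called. The 3-prime excess of the actin control was 1.43 to 1.64 in J ganglion and 4.65 to 4.81 in J amacrine cells, and its part in these values was not tested.

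The probe sets of a gene did not always rise and fall together over the subtypes. For Scn2a, 1435933_at followed the brightest with r = 0.90 over 13 subtype means and 1427281_at with r = 0.81. The 2 dimmer probe sets, 1445259_at and 1427281_at, separated ganglion cells from all other subtypes. They were at most 4.83 in bipolar subtypes, 6.82 to 7.92 in ganglion cell subtypes and at most 5.66 in amacrine subtypes. For Scn1a, 1450120_at was lowest in starburst cells (4.67) and highest in W7 cells (8.74), with r = 0.83. For Scn2b, 1430648_at followed the brightest with r = 0.45, was highest in Cdh3 ganglion cells (9.32) and gave -0.14 for ganglion minus amacrine cells. For Scn8a, 1457412_at and 1439889_at gave r = 0.79 and 0.86. The second probe sets of Scn3a and Scn3b were below the median of all probe sets on every array, so those genes rest on 1 probe set each. These correlations share arrays and normalization and describe the 13 means only.

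**Figure D4:**
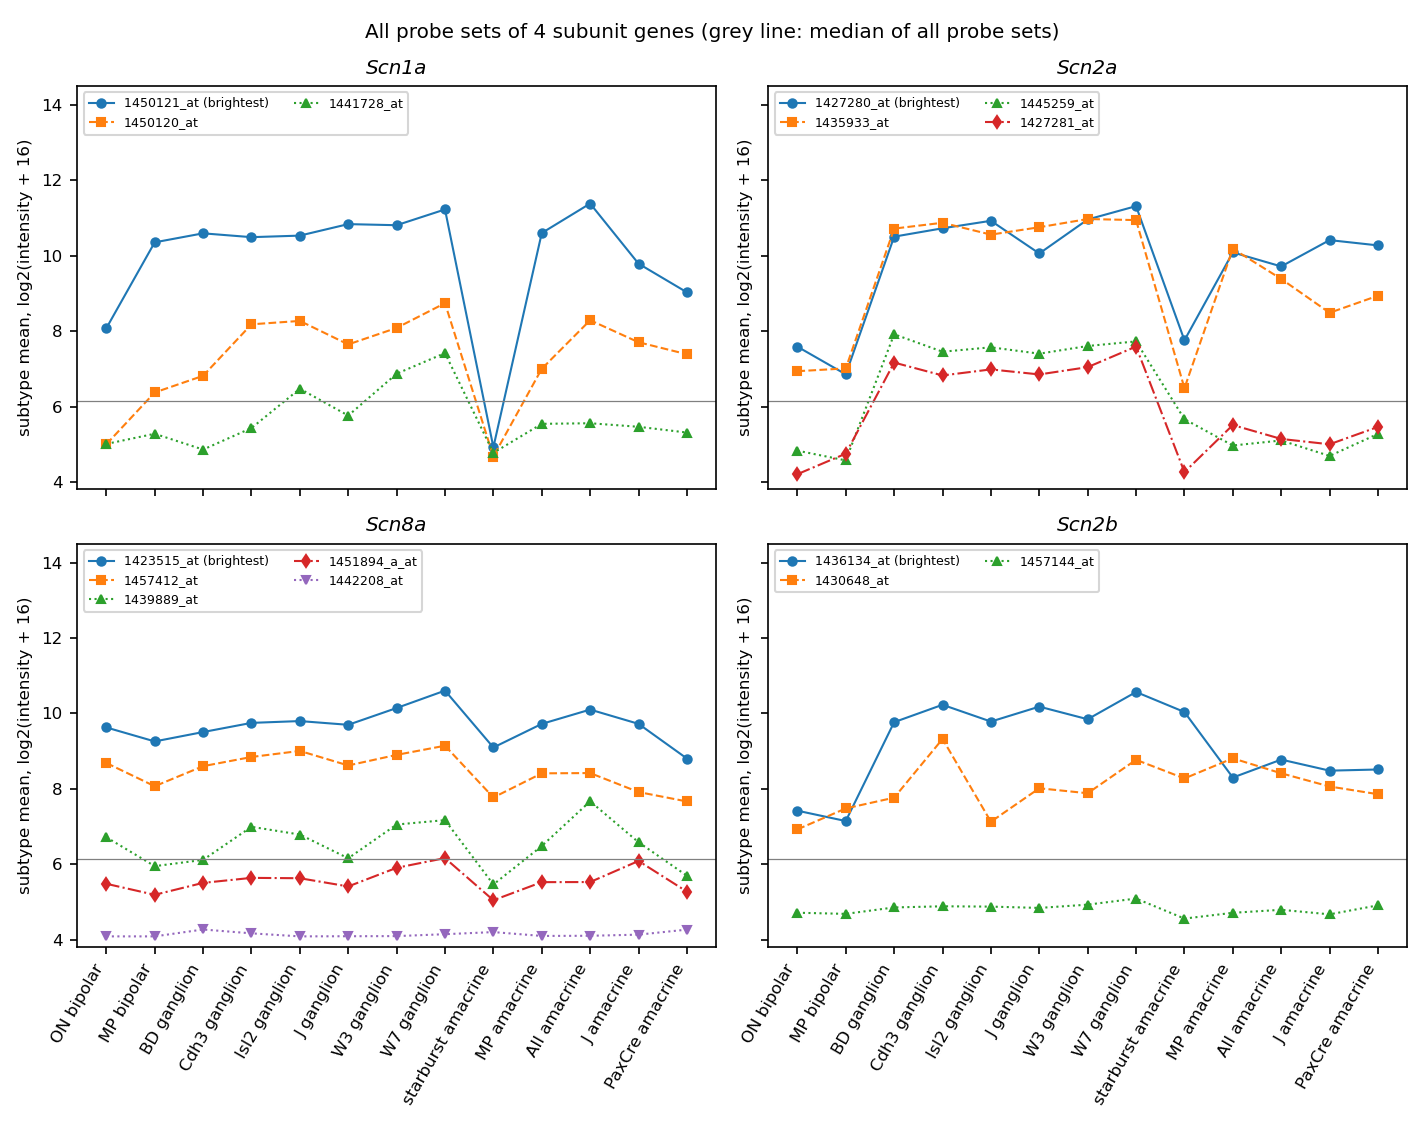
Subtype means of every probe set of Scn1a, Scn2a, Scn8a and Scn2b, as log2(intensity + 16), with the brightest as circles and solid lines, lines joining subtypes for reading only, and a grey line at the median of all probe sets. The Scn1a probe sets shared their minimum in starburst cells, and the brightest and second Scn2b probe sets differed in starburst and ganglion cells.

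Of 8 other sodium channel genes listed, Scn7a, Scn9a, Scn11a and Nalcn were tested. Scn9a, which encodes Nav1.7, a channel of peripheral sensory neurons, was at 4.74 in ON and 4.65 in MP bipolar cells. Its subtype means were 8.73 to 9.91 in ganglion cells, and it was at 4.76 in starburst, 6.30 in MP, 4.66 in AII, 6.83 in J and 7.17 in PaxCre amacrine cells. It was higher in ganglion than in amacrine cells by 3.37 ± 0.15 (limma adjusted p = 4.63e-13) and lower in bipolar than in ganglion cells (-4.62 ± 0.20), with no overlap in either comparison. The bipolar values lie near the floor, so the size of the second difference depends on the constant added. Scn9a was also lower in starburst (-1.48 ± 0.27) and AII cells (-1.60 ± 0.27) than in the other amacrine cells, and higher in PaxCre cells (1.54 ± 0.27). It was called higher in J amacrine cells too. The starburst and AII values also lie near the floor. Probe sets 1442809_at and 1442333_a_at were low in starburst cells too (4.83 and 4.57). Probe set 1457819_at was not, at 5.76 against 5.10 to 5.84 in the other amacrine subtypes, and 1421660_at was dim throughout. With their brightest probe sets, Scn7a, Scn11a and Nalcn, the sodium leak channel, were called in none of the 3 class comparisons. The brightest of Scn7a still had subtype means of 7.09 to 7.56 in ganglion cells and 6.31 to 6.56 elsewhere. Its probe set 1427495_at was at 5.94 to 6.54 in ganglion cell subtypes and 4.09 to 4.18, at or near the floor, elsewhere. Its probe set 1436044_at overlapped, at 5.95 to 8.19 and 5.59 to 6.28. No test of these other Scn7a probe sets is given here. Nalcn was at 10.02 and 10.42 in ON and MP bipolar cells, 10.04 to 10.45 in ganglion cells, 8.51 in MP amacrine cells and 9.65 to 10.46 in the other amacrine cells.

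Of 24 listed partners at the initial segment and of the channels, 21 were tested. 10 were higher in ganglion than in amacrine cells (15.8% of all genes) and none lower, and 12 were lower in bipolar than in ganglion cells (18.5% of all genes). Between bipolar and amacrine cells 6 were lower in bipolar cells (5.7% of all genes) and 1, the adhesion protein gene Cntn1, higher (1.74 ± 0.14; 4.67% of all genes). The adhesion protein gene Chl1 was higher in ganglion cells by 4.06 ± 0.14, the potassium channel gene Kcna6 by 3.36 ± 0.08 and Fgf12, an intracellular factor that binds sodium channels, by 2.88 ± 0.12. The ganglion minus amacrine count was 11 without the starburst arrays, where 16.6% of all genes were called higher. The next brightest probe sets gave 4 higher and 2 lower of 20 tested, with 16.4% of all genes higher and 11.1% lower. The deposited scale gave 16 higher, with 27.5% of all genes higher. For bipolar minus ganglion cells, the next brightest probe sets gave 3 higher (12.8% of all genes) and 8 lower (18.7%).

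In starburst cells 7 partners were lower (5.61% of all genes) and 2 higher (5.32%) than in the other amacrine cells. The next brightest probe sets, with 20 partners tested, gave 3 lower (4.46% of all genes) and 3 higher (5.14%). The values below are of the brightest probe sets. Ank3, the gene of ankyrin-G, averaged 8.76 in starburst and 11.54 in the others (-2.78 ± 0.29; limma adjusted p = 1.02e-06) with no overlap. Fgf13 averaged 6.40 and 9.32 (-2.92 ± 0.23), and the potassium channel gene Kcna1 5.06 and 9.11 (-4.06 ± 0.27). L1cam, Fgf14, Kcnq3 and the ubiquitin ligase gene Nedd4l were lower by 1.10 to 1.70 units (L1cam -1.10 ± 0.16, Nedd4l -1.70 ± 0.30). The adhesion protein gene Nrcam (1.84 ± 0.16) and Fgf12 (1.78 ± 0.21) were higher. In AII cells, where Scn1a was highest, 2 partners were higher (5.73% of all genes) and 8 lower (10.5%): neurofascin (Nfasc) averaged 11.02 in AII and 8.91 in the other amacrine cells (2.10 ± 0.26), and Nrcam 6.71 and 10.13 (-3.42 ± 0.16). J cells had 5 partners higher (2.8% of all genes) and none lower, and MP amacrine cells 4 higher (5.13%) and 5 lower (5.26%). Without the starburst arrays the counts were 4 higher (3.01% of all genes) and 2 lower (3.76%) in J cells. In MP cells they were 2 higher (4.52%) and 5 lower (4.88%). In PaxCre cells 8 partners were higher (4.97% of all genes), among them Fgf13 at 2.53 ± 0.23, Fgf14 at 3.41 ± 0.33 and Kcna1 at 3.42 ± 0.27. These counts also moved with the next brightest probe sets. AII cells then had 4 higher (5.71% of all genes) and 4 lower (8.54%), and MP cells 1 higher (4.46%) and 1 lower (4.97%). J cells had 2 higher (2.55%) and none lower, and PaxCre cells 3 higher (4.21%) and 1 lower (1.61%).

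The members fell into loose patterns over the 13 subtype means, given as descriptions since they share arrays. Scn2a and Scn3b ran together (r = 0.94, and 0.93 without starburst cells). Scn1a and Scn3a gave r = 0.92, which was 0.65 without starburst cells, and Scn1a with Scn2b gave 0.10, which was 0.60 without them. Among the genes tested, those most like Scn1a were Dzip1 (r = 0.94), Osbpl8 (0.94) and Mycbp2 (0.94). The most like Scn2a were Psd2 (0.95), Scn3b (0.94) and Nyap1 (0.93), and the most like Scn3a were Chd5 (0.96), Dzip1 (0.94) and Scn1a (0.92). Scn2b was closest to Vdac3 (0.95), Wsb2 (0.94) and Caln1 (0.94), and Scn3b to Gng2 (0.98), Vsnl1 (0.98) and L1cam (0.97). No gene came as close to Scn8a, whose nearest were Gpcpd1 (0.81), Synj2bp (0.80) and Serpini1 (0.76).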

How the data were processed

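The data are single-colour Affymetrix arrays of sorted retinal neurons, 26 columns of 13 subtypes with 2 replicates each. Per the labels' protocols, RNA was isolated with PicoPure and amplified in 2 rounds with MessageAmp II-biotin. The deposited values are linear intensities, with 2.87% to 4.01% of each array's values at the lowest value of 1. Their software and scaling were not given in the sources used here. The number of arrays limits the precision.

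Values were taken as log2(intensity + 16) and quantile normalized. Probe sets with 1 symbol (34945) gave 18193 genes, with symbols from the platform's probe table updated by gene identifier for 34754 probe sets. A gene was tested if at least 2 arrays lay above the overall median. Each subtype had its own mean in limma 3.58.1 (R 4.3.3), with 13 residual and 4.59 prior degrees of freedom, subtypes weighing equally within a side, and two-sided tests adjusted by Benjamini-Hochberg within each of 17 comparisons. Errors measure the spread between litters of a subtype, and class differences refer to the subtypes sampled. The procedure was tested on simulated data. Named genes are the members, 2 fixed lists of other sodium channel and partner genes, the 3 most similar genes per member, and marker genes where they move with a result. Members and lists were chosen with earlier results of these data known. Alternatives covered scale, pseudocount, filter, probe set, variance model, block, strain, line and each array left out.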

Additional observations from a re-analysis of the deposited data

How the results depend on the processing

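Of 4122 member differences under an alternative, 3876 kept their direction and their side of the threshold, 52 kept the direction but lost the call and 36 gained a call. Another 134 changed sign without a call in either setting, 65 of them with another probe set and 9 without the starburst arrays, among them Scn1a for bipolar minus amacrine (-0.99) and J amacrine (-0.55) and Scn3a for bipolar minus amacrine (-0.68) and AII (-0.60). In 24 the sign changed and at least one side was called, all with another probe set except Scn1a in PaxCre amacrine minus other amacrine cells, which was 1.67 with subtypes labelled C57BL/6 only. With the next brightest probe set, Scn2b was -0.14 for ganglion minus amacrine, -0.0095 for starburst minus other amacrine and -0.0469 for J line ganglion minus amacrine. Scn1a was -1.33 for bipolar minus amacrine, -0.013 for MP amacrine minus other amacrine and -0.0577 in the J line, where Scn2a was 2.27. With the median over probe sets, Scn2b was -0.0674 for ganglion minus amacrine and -0.0469 in the J line, Scn1a was -1.33 for bipolar minus amacrine, -0.039 for MP amacrine minus other amacrine and -0.0577 in the J line, and Scn2a was 1.89 in the J line. With every probe set tested separately, 1430648_at of Scn2b gave -0.14, -0.0095 and -0.0469 and 1450120_at of Scn1a gave -1.33, -0.013 and -0.0577 in those comparisons, Scn2a in the J line gave 1.85, 2.27 and 2.71, and Scn2a 1445259_at gave 0.66 for starburst cells. Counts of members called moved as follows. Only the larger moves are listed, so a count left out here can also have changed. The next brightest probe set gave 1 for ganglion minus amacrine (16.4% of all genes called higher) and 2 for bipolar minus ganglion (18.7% lower). It gave 2 for starburst (4.46% lower), 1 for MP amacrine (4.46% higher) and 0 for PaxCre (4.21% higher). It gave 0 for ON minus MP bipolar, 1 for the MP line and 1 for the J line. With this probe set 4 members were tested, so fewer could be called. The median over probe sets gave 1 for ganglion minus amacrine (14.3% of all genes called higher) and 0 for MP amacrine (3.93% higher). It gave 2 for AII (4.81% higher), 0 for PaxCre (4.11% higher), 0 for ON minus MP bipolar and 1 for the J line. Subtype means as units gave 2 for ganglion minus amacrine (14.7% of all genes called higher). Without the starburst arrays, chosen after seeing the data, the count was 2 for ganglion minus amacrine (16.6% of all genes called higher). It was 0 for MP amacrine (4.52% higher) and 2 for AII (5.39% higher and 10.3% lower). Each array shifted to the same median gave 2 for AII (4.73% of all genes called higher and 11.4% lower), 1 for J amacrine (3.09% higher) and 1 for the J line. The columns as deposited gave 1 for J amacrine (2.99% higher). They also gave calls of Scn3a and Scn8a for bipolar minus ganglion, where 29.8% of all genes were called lower. Subtypes labelled C57BL/6 only gave 3 for J amacrine (2.84% higher) and 4 for PaxCre (3.87% higher). Leaving out 1 array at a time gave 1 to 2 members for AII, 0 to 3 for J amacrine and 1 to 2 for the J line. Shares of all genes are not given here for ON minus MP bipolar, for the lines or for the fits leaving out 1 array. The cause of these changes was not tested. On the deposited scale the median gene shifted by 0.53 for ganglion minus amacrine and -0.53 for bipolar minus ganglion, and the share of called genes that were higher was 85.8% and 15.8%, against 63.7% and 37.7% after quantile normalization. Replicate numbers showed no pairing common to the subtypes: deviations of same-numbered arrays correlated with a median of 0.03 (-0.23 to 0.37 over 78 pairs of subtypes). Of these pairs, 21 were above 0.1 and 8 below -0.1. Whether some subtypes shared a batch was not tested. The fit with the replicate block changed no count of members called (5 for ganglion minus amacrine, 3 for bipolar minus amacrine, 4 for bipolar minus ganglion). Low signal over background limits Scn4b, Scn1a in starburst cells and the dim probe sets.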
